A study of Mus musculus with 6 samples.

Results

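The CD11b+Gr1+ sort of leukemic splenocytes rests on cell-surface proteins whose RNA was itself measured in the sorted cells. This account follows 9 genes, chosen by name: Itgam, Ly6g, Ly6c1 and Ly6c2, which encode the antigens behind the CD11b and Gr1 gates, and the adhesion molecules Itgb2, Itgal, Itgax, Itga4 and Cd44. They are 9 of the 29374 genes with any estimated read, and all 9 passed the filter on low counts, together with 16656 genes in all.

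Poly(A) RNA was sequenced from spleen cells of tumor-bearing mice carrying the Mll-AF9 fusion, a knockin oncogene that causes acute myeloid leukemia. Per the study's text, the Rpl22 mice had been backcrossed to C57BL/6, and the knockin mice were bred with Rpl22-deficient mice. Cells positive for CD11b and Gr1 were taken from animals that were Rpl22+/+ (3 libraries) or Rpl22-/- (3 libraries, germline loss of a protein of the large ribosomal subunit). Both groups thus carried Mll-AF9 and passed the same gate, and no library came from healthy spleen. RNA of the gate antigens was measured in cells selected for those proteins, and the part of that selection in their levels was not tested. The study's text gives a single mouse identifier per genotype for these leukemias, and whether its libraries stem from different animals is not stated in the labels, so that p-values measure the spread between libraries, which may be technical.

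Libraries held 35828500 (Rpl22-/- replicate 1) to 102866127 estimated reads. Rpl22 itself stood at 148, 235 and 152 CPM in Rpl22+/+ and 58.3, 89.9 and 73.5 CPM in Rpl22-/-, lower in every Rpl22-/- library (CPM are reads scaled to a common library total). Reads of the gene thus remained in Rpl22-/-. Which exons the allele lacks was not examined here, so these values do not show that the gene is null. Rpl22+/+ replicate 2 stood apart, correlating across genes at r = 0.926 and 0.934 with the other Rpl22+/+ libraries, which correlated with each other at 0.992. As a check of the labelled cells, 13 of 13 neutrophil lineage markers were detected. They summed to 118374 to 174937 TPM (transcript abundance corrected for length), most of it S100a8 and S100a9. Markers of other cell types summed to at most 3146 TPM (dendritic cell), 3069 TPM (erythroid) and 1639 TPM (monocyte and macrophage). B cell markers reached at most 545 TPM, NK cell markers 353 TPM and T cell markers 71.4 TPM. The lowest maxima were 48.5 TPM (eosinophil, basophil and mast cell), 5.50 TPM (platelet and megakaryocyte) and 1.84 TPM (stroma and endothelium).

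Integrins are surface receptors made of an alpha and a beta chain. The beta2 chain, Itgb2 (CD18), is found on leukocytes and pairs with Itgal (CD11a), Itgam (CD11b), Itgax (CD11c) or Itgad (CD11d). These pairs bind ligands such as ICAM-1 and complement fragments and let neutrophils and monocytes hold to endothelium and take up coated particles. Itga4 (CD49d) pairs with Itgb1 or Itgb7 and binds VCAM-1, and Cd44 is a receptor for hyaluronan. Ly6g, Ly6c1 and Ly6c2 are small lipid-anchored proteins of a gene cluster. Ly6G marks maturing neutrophils, whereas Ly6C is found on monocytes and on earlier granulocytes as well. The Gr1 antibody clone in the study's list of reagents binds Ly6G and, more weakly, Ly6C, so a Gr1+ cell need not carry both.

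Because the Gr1 gate reads several Ly6 proteins, the first question was how far their genes can be told apart. The coding sequences of Ly6c1-202 and Ly6c2-201, the most abundant transcript of each gene, are both 393 bases long and differ at 9 of them (97.7% identity). Ly6g-202 was 80.1% identical to Ly6c1-202 and 78.6% identical to Ly6c2-201, with 9 gap bases counted as differences in each. The first 150 coding bases of the Ly6C pair are shown to let the closeness be seen, with capitals at the 6 positions at which they differ.

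Ly6c1-202: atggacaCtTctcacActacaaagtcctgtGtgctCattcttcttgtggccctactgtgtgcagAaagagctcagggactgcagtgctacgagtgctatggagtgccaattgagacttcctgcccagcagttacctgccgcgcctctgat

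Ly6c2-201: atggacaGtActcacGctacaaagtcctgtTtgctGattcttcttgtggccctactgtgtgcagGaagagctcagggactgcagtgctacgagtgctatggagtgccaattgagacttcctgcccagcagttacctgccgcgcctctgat

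Of the 31-base windows of the whole Ly6c1-202 transcript, 49.0% also occurred in Ly6c2, and only 2.35% occurred in Ly6g. The reads given to Ly6c1 and to Ly6c2 are therefore a division made by the quantification, and each of these genes is uncertain by itself. Their sum is given beside them. Ly6g does not share this limit to the same extent.

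These Ly6 genes lie next to each other on chromosome 15 (GRCm39), with Ly6c1 at 74915867 to 74920679 and Ly6c2 at 74980007 to 74983819 on the minus strand and Ly6g at 75027089 to 75030975 on the plus strand. Itgal (126895432 to 126934310), Itgam (127661812 to 127717663) and Itgax (127728719 to 127749829) all lie on the plus strand of chromosome 7. Itgb2 lies on chromosome 10 (77366086 to 77401542). Cd44 (102641486 to 102732010) and Itga4 (79085770 to 79163467) are on chromosome 2.

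Of the 9 genes, 4 were lower in Rpl22-/- (Ly6g, Itgb2, Itgal and Itgam) and 0 were higher, where a call required a log2 fold change past 1 in either direction together with an edgeR adjusted p-value below 0.05. By that rule 17.5% of all genes tested were called, 8.54% lower and 8.93% higher. Cd44 passed the adjusted p-value with a smaller fold, making 5 at any size of change, against 27.6% of all genes. The groups did not overlap in CPM for 6 of the 9 genes, against 46.1% of all genes. The median log2 fold change was -0.70 over the 9 genes and 0.07 over all genes tested. In these bulk samples fewer cells carrying a transcript and less of it per cell cannot be told apart.

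**Figure D1:**
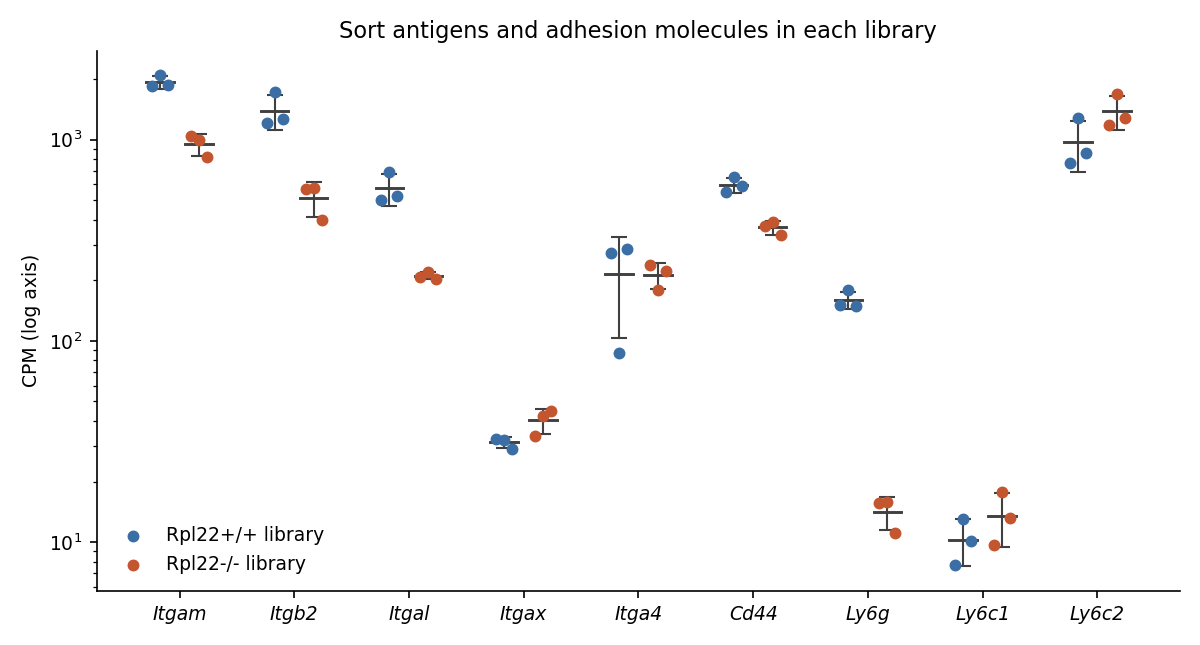
CPM of each of the 9 genes (log axis) in the 3 Rpl22+/+ and 3 Rpl22-/- libraries, points being libraries, horizontal bars group means and whiskers SD. Ly6g separates furthest, at 149 to 178 CPM against 11.1 to 15.7 CPM, while the ranges of Ly6c1, Ly6c2 and Itga4 overlap between genotypes.

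Ly6g, the neutrophil-restricted part of the Gr1 antigen, showed the largest difference among the 9. It stood at 151, 178 and 149 CPM in Rpl22+/+ and at 15.7, 15.7 and 11.1 CPM in Rpl22-/-. Every Rpl22-/- library was thus below every Rpl22+/+ library, with 587, 1577 and 1181 reads still behind the low values. The mean fell from 159 ± 16.2 to 14.2 ± 2.64 CPM (SD, n = 3 each), 11.2-fold lower (log2 fold change -3.49 ± 0.20, SE; edgeR adjusted p = 9.7e-05). This gene was called in all 18 alternative analyses, with log2 fold changes of -3.59 to -3.34.

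Ly6c2, the main Ly6C gene in these cells, did not fall with Ly6g. It stood at 768, 1280 and 854 CPM in Rpl22+/+ and 1186, 1678 and 1274 CPM in Rpl22-/-. The highest Rpl22+/+ library, replicate 2, lay above the Rpl22-/- replicates 1 and 3, so the CPM ranges overlapped, although on the TPM scale they did not (1677 to 2171 against 2631 to 3302). The log2 fold change was 0.51 ± 0.25 (SE; edgeR adjusted p = 0.180), and 0.53 with an adjusted p of 0.0347 when the replicate number was fitted as a block. Without Rpl22+/+ replicate 2 it was 0.73 (edgeR adjusted p = 0.0292). The adjusted p was under 0.05 in 6 of 18 alternatives, none with a log2 fold change over 1, and the direction was the same in all of them.

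Ly6c1 was far less abundant, at 7.68, 13 and 10.2 CPM in Rpl22+/+ and 9.73, 17.7 and 13.1 CPM in Rpl22-/-, with overlapping groups (log2 fold change 0.40 ± 0.28, SE; edgeR adjusted p = 0.360, and 0.0328 with the replicate block and a GC correction). It received 0.815% to 1.17% of the reads of the Ly6C pair in every library. The sum of both genes therefore followed Ly6c2, with a log2 fold change of 0.51 ± 0.25 (SE; edgeR adjusted p = 0.181, and 0.0349 with the replicate block).

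The RNA behind the Gr1 antigen can also be given as shares. Ly6g held 13.3%, 9.70% and 11.8% of the summed TPM of Ly6g, Ly6c1 and Ly6c2 in Rpl22+/+ libraries and 1.04%, 0.725% and 0.667% in Rpl22-/- libraries. This share was computed after the values of its genes had been seen and is given as a description. The rest was almost all Ly6c2 in both genotypes.

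Promoter sequences of the cluster are shown because Ly6g and Ly6c2 are neighbours with different values. Each is the 250 bases before a RefSeq transcription start (GRCm38.p6, a build other than that of the gene positions above), with GAGGAA, the core bound by the myeloid factor PU.1, and its reverse complement in capitals. They are Ly6g at chr15:75155011-75155260 (plus strand), Ly6c2 at chr15:75111972-75112221 (minus strand) and Ly6c1 at chr15:75048838-75049087 (minus strand), and Itgam, the CD11b gene, at chr7:128062390-128062639 (plus strand) for comparison.

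Ly6g: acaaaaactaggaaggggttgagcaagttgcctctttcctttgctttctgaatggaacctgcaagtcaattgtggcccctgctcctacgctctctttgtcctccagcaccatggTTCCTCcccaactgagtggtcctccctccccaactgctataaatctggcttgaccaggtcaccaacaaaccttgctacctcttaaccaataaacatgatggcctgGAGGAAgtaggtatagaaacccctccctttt

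Ly6c2: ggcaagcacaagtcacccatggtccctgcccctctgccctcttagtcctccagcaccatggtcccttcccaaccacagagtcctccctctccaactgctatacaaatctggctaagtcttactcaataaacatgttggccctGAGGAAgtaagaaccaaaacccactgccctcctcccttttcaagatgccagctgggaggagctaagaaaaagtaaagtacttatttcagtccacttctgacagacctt

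Ly6c1: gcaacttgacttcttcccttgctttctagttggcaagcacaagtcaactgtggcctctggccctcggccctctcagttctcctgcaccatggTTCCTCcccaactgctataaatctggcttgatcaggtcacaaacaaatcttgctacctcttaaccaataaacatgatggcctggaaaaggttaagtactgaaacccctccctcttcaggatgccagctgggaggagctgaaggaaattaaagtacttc

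Itgam: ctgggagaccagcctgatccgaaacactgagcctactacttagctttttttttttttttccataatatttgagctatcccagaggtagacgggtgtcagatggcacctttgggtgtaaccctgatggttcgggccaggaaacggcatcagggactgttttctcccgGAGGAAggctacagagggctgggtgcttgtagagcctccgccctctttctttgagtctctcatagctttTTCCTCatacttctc

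RefSeq promoters, which run to 50 bases past the start, were matched for 7 of the 9 genes (10 windows, since some genes have more than 1 start). Itgb2 and Itgal had no entry. GAGGAA, read on both strands, occurred in windows of 5 of these genes (Itgam, Ly6g, Ly6c1, Ly6c2 and Cd44) and in 28.3% of all 32851 promoters. TGTGGT, the RUNX core, occurred in windows of 3 genes (Itgax, Itga4 and Ly6c2) and in 16.8% of all promoters. TTGCNNAA, a C/EBP site, occurred for 1 gene, Ly6g, and in 10.8% of all promoters. These are matches of letters and were not tested for binding.

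The nearest genes of the cluster, those between or within 100 kb of Ly6c1, Ly6c2 and Ly6g, were not called in either direction. The 3 that were tested, Ly6e, Ly6i and Ly6a, had log2 fold changes of 0.03, -0.27 and -0.14, with a median of -0.14. Ly6e is the most abundant of them, at 882, 1667 and 973 CPM in Rpl22+/+ and 961, 1382 and 1258 CPM in Rpl22-/-. The direction of its small difference turned in 3 of 18 alternatives.

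Genes whose level followed Ly6g most closely across the 6 libraries were sought among 16655 others by the root mean square distance of centred log2 CPM. The nearest were Plbd1 (distance 0.08), Cldn1 (0.11) and Mmp9 (0.11). Plbd1, a phospholipase B-like protein of granulocytes, stood at 561, 698 and 583 CPM in Rpl22+/+ and 57.7, 63.8 and 48.2 CPM in Rpl22-/-. Mmp9 encodes the gelatinase of late neutrophil granules. This is a likeness over 6 libraries that share a genotype difference.

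The beta2 integrin chains that dominate in these cells were lower in Rpl22-/- together. Itgam, the gene of the CD11b gate, stood at 1838, 2085 and 1861 CPM in Rpl22+/+ and at 1036, 994 and 815 CPM in Rpl22-/-. No library of either genotype crossed into the range of the other. Its mean fell from 1928 ± 137 to 948 ± 117 CPM (SD, n = 3 each), for which the fit gave -1.02 ± 0.16 on the log2 scale (SE; edgeR adjusted p = 0.0048). That value lies just past the fold threshold. Itgam was called in 13 of 18 alternatives and passed the adjusted p-value in 17, and it did not reach the fold without Rpl22-/- replicate 3 (-0.92, edgeR adjusted p = 0.0261).

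Itgb2, the shared beta chain, stood at 1208, 1713 and 1261 CPM in Rpl22+/+ and at 571, 573 and 398 CPM in Rpl22-/-. All Rpl22-/- libraries were below all Rpl22+/+ libraries, 2.71-fold by the fit (log2 fold change -1.44 ± 0.22, SE; edgeR adjusted p = 0.0046). Itgal, the alpha chain of LFA-1, stood at 501, 692 and 527 CPM in Rpl22+/+ and at 209, 220 and 203 CPM in Rpl22-/-. It fell by nearly the same factor, 2.72-fold, with the groups apart (log2 fold change -1.44 ± 0.17, SE; edgeR adjusted p = 0.0015). Both were called in 17 of 18 alternatives, the exception being the test against a minimum fold of 2.

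Itgax, the CD11c chain of dendritic cells and some macrophages, was low in these cells and did not pass the test. It stood at 32.7, 32.0 and 29.1 CPM in Rpl22+/+ and at 33.7, 42.1 and 44.8 CPM in Rpl22-/-. The groups touch without overlapping in CPM and overlap in TPM (log2 fold change 0.36 ± 0.15, SE; edgeR adjusted p = 0.123). Itgad, the CD11d chain next to Itgax, is no gate antigen but completes the family. It stood at 2.55, 2.84 and 2.23 CPM in Rpl22+/+ and 6.47, 7.93 and 7.37 CPM in Rpl22-/-, and it rose (log2 fold change 1.52 ± 0.19, SE; edgeR adjusted p = 0.0019), but fell short of the fold on log2(TPM + 1) (0.95).

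**Figure D2:**
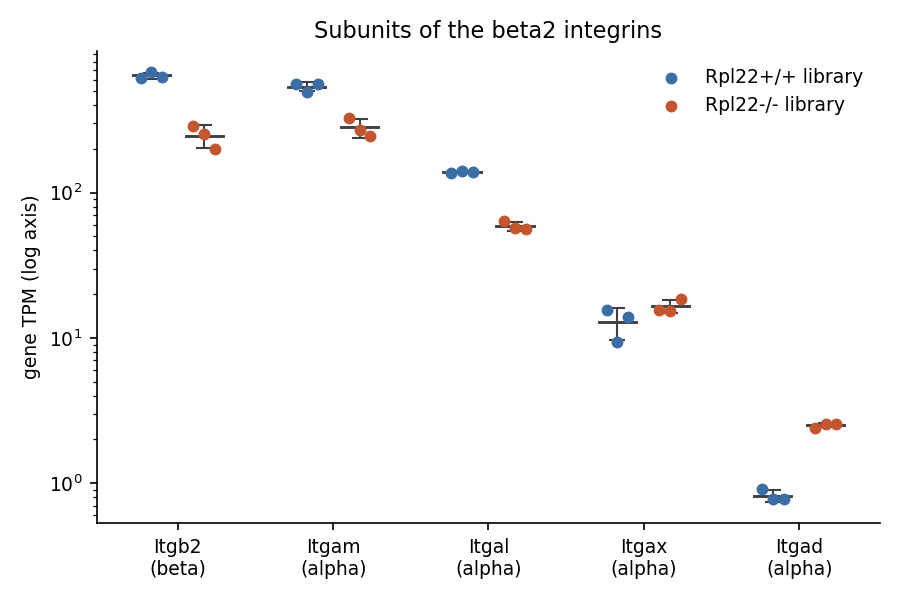
TPM of the beta chain Itgb2 and of the 4 alpha chains it pairs with (log axis), points being libraries, horizontal bars group means and whiskers SD. Itgb2, Itgam and Itgal are lower in all Rpl22-/- libraries, while Itgad is higher in all of them, at 2.41 to 2.56 against 0.774 to 0.907 TPM.

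On the per-length TPM scale the chains can be set against each other. Itgam held 78.7%, 76.4% and 78.4% of the summed TPM of the 4 alpha chains in Rpl22+/+ and 80.1%, 78.4% and 76.0% in Rpl22-/-. Its share was 77.8 ± 1.26% against 78.2 ± 2.08% (SD, n = 3 each), a difference of 0.345 percentage points within the spread of the libraries (two-sided exact permutation test, p = 0.9). The sign of that difference depends on single libraries: it was -0.379 points without Rpl22+/+ replicate 2 and -0.631 points without Rpl22-/- replicate 1.

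Itgal held 20.2 ± 1.63% of the alpha-chain TPM in Rpl22+/+ and 16.5 ± 0.985% in Rpl22-/-. Itgax held 1.86 ± 0.368% and 4.68 ± 0.998%, and Itgad 0.119 ± 0.00935% and 0.707 ± 0.107%. For each of these 3 chains the groups did not overlap (two-sided exact permutation test, p = 0.1, the smallest that 3 against 3 libraries can give). The denominator is mostly Itgam and Itgal, both lower in Rpl22-/-, so a share can rise without a rise of its own chain. The TPM of Itgax itself overlapped between the genotypes. The summed alpha-chain TPM was 1.16, 0.953 and 1.13 times that of Itgb2 in Rpl22+/+ and 1.41, 1.36 and 1.62 times in Rpl22-/-. The ratio was 1.08 ± 0.110 against 1.46 ± 0.138 (SD, n = 3 each; two-sided exact permutation test, p = 0.1), with the groups apart.

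The order of the 9 genes by mean TPM changed at few places. In Rpl22+/+ it ran from Ly6c2 (1903 TPM) through Itgb2 (641), Itgam (537), Ly6g (249), Cd44 (201), Itgal (139), Itga4 (29.9) and Ly6c1 (23.4) to Itgax (12.9). The libraries of Itga4 and Ly6c1 overlapped there, and those of the other neighbours in the order did not. In Rpl22-/- it ran from Ly6c2 (2900 TPM) through Itgam (281), Itgb2 (248), Cd44 (121), Itgal (58.8), Ly6c1 (32.0), Itga4 (30.4) and Ly6g (23.7) to Itgax (16.5). Itgam and Itgb2 overlapped, as did Ly6c1 with Itga4 and Itga4 with Ly6g, so that Ly6g had moved from the fourth place into the group of low genes.

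Itga4, the alpha chain of VLA-4, differed most among libraries of a genotype. It stood at 272, 86.9 and 287 CPM in Rpl22+/+ and at 237, 178 and 224 CPM in Rpl22-/-. Rpl22+/+ replicate 2 was the lowest of all 6 libraries and the other Rpl22+/+ libraries were the highest (log2 fold change -0.02 ± 0.42, SE; edgeR adjusted p = 0.983). Without that library the log2 fold change was -0.44 (edgeR adjusted p = 0.0351), and its sign was opposite to that of the full comparison in 8 of 18 alternatives. The partner chain Itgb7, the most abundant of the other integrin subunits, stood at 170, 320 and 198 CPM in Rpl22+/+ and 82.2, 143 and 133 CPM in Rpl22-/- (log2 fold change -0.94 ± 0.31, SE; edgeR adjusted p = 0.0641). Its adjusted p was under 0.05 in 7 of 18 alternatives, among them the replicate block (edgeR adjusted p = 0.00928), and it was called in 1, the block with a GC correction (-1.02). In Rpl22+/+ replicate 2, which had the least Itga4, Itgb7 was highest.

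Cd44 stood at 551, 648 and 585 CPM in Rpl22+/+ and at 374, 391 and 334 CPM in Rpl22-/-. The groups were well apart, with a mean of 595 ± 49.1 against 366 ± 29.1 CPM (SD, n = 3 each). The difference was smaller than for Itgb2, Itgal and Itgam, with a log2 fold change of -0.70 ± 0.14 (SE, edgeR adjusted p = 0.0124). It passed the adjusted p-value in 15 of 18 alternatives, and the edgeR value was 0.0551 when Rpl22+/+ replicate 3 was left out and 0.0632 when Rpl22-/- replicate 3 was.

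**Figure D3:**
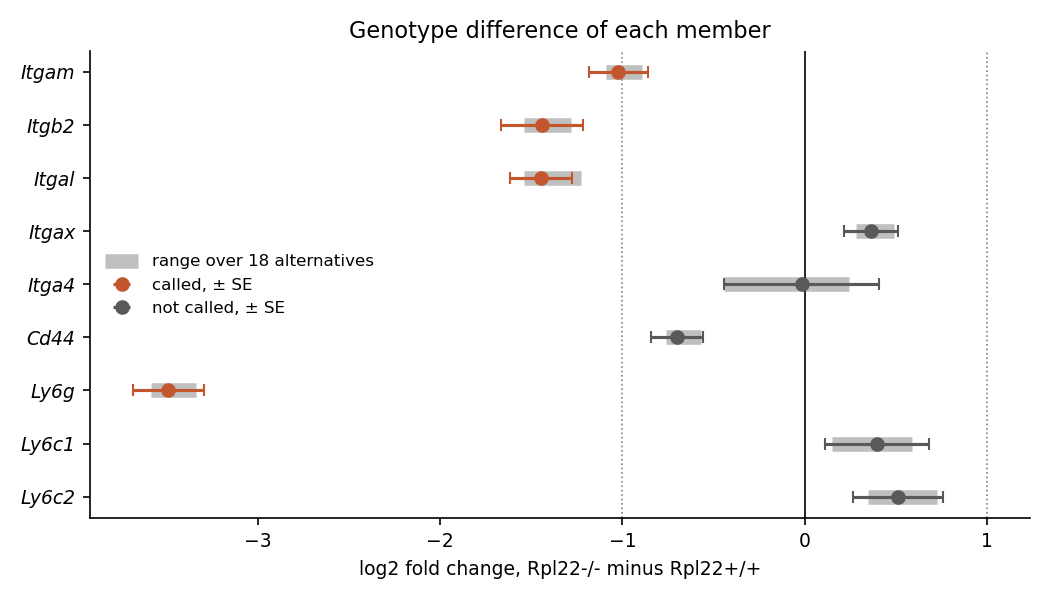
Log2 fold change (Rpl22-/- minus Rpl22+/+) of the 9 genes, with points for the edgeR estimate, whiskers for its SE and grey bars for the range over 18 alternatives. Ly6g lies at -3.49 and Itgb2, Itgal and Itgam lie at or past -1, while the bar of Itga4 crosses 0.

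Transcripts within a gene were compared for the 9 genes by their share of the gene's TPM, for 20 transcripts that reached 10% of their gene in any library. Groups did not overlap for 6 of the 20, beside 16.0% of the 38630 transcripts of all tested genes under the same rule, single-transcript genes included. The count was 11 without Rpl22+/+ replicate 2. With fewer libraries groups overlap less easily, and no share over all transcripts was computed for that set. For the 20, the smallest adjusted p was 0.333 (two-sided exact permutation tests, which cannot go below 0.1 before adjustment). In Cd44, the short transcript Cd44-203 has 9 coding exons. The longer Cd44-207 has 14, including 5 (636 bases) that Cd44-203 does not have. CD44 is known for such alternative exons, which lengthen the extracellular stem of the protein.

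Cd44-203 held 54.3%, 58.7% and 56.1% of Cd44 TPM in Rpl22+/+ and 37.1%, 43.4% and 46.7% in Rpl22-/-. Cd44-207 held 38.7%, 38.6% and 35.6% in Rpl22+/+ and 58.4%, 54.0% and 46.7% in Rpl22-/-. Shares of the short form were thus lower in every Rpl22-/- library and those of the long form higher. In level, Cd44-203 went from 110, 110 and 119 TPM to 47.6, 52.1 and 53.8 TPM, whereas Cd44-207 stood at 78.8, 72.0 and 75.8 TPM and at 74.8, 64.8 and 53.8 TPM, with overlap between the groups. The transcripts also differ outside the coding sequence, with 1753 noncoding bases in Cd44-203 and 3314 in Cd44-207, so the assignment of reads does not rest on the coding exons alone.

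In Itgal, the transcripts Itgal-201 and Itgal-202 both have 31 coding exons, and Itgal-203 has 21, without 11 coding exons (1207 bases) of Itgal-201. Itgal-203 held 9.17%, 7.54% and 9.71% of Itgal TPM in Rpl22+/+ and 29.7%, 25.2% and 20.9% in Rpl22-/-. Its share was therefore higher in every Rpl22-/- library. Its level did not separate the groups, at 12.4, 10.7 and 13.5 TPM against 18.8, 14.3 and 11.8 TPM. Itgal-202 held 40.2%, 49.4% and 39.8% in Rpl22+/+ and 23.1%, 28.1% and 36.2% in Rpl22-/-. The main transcripts of Itgam, Itgam-203 (60.6 ± 0.716% and 65.7 ± 3.38%, SD, n = 3) and Itgam-201, have coding sequences of 1153 and 1154 codons. Ly6g-202 held 100% of Ly6g in every library.

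**Figure D4:**
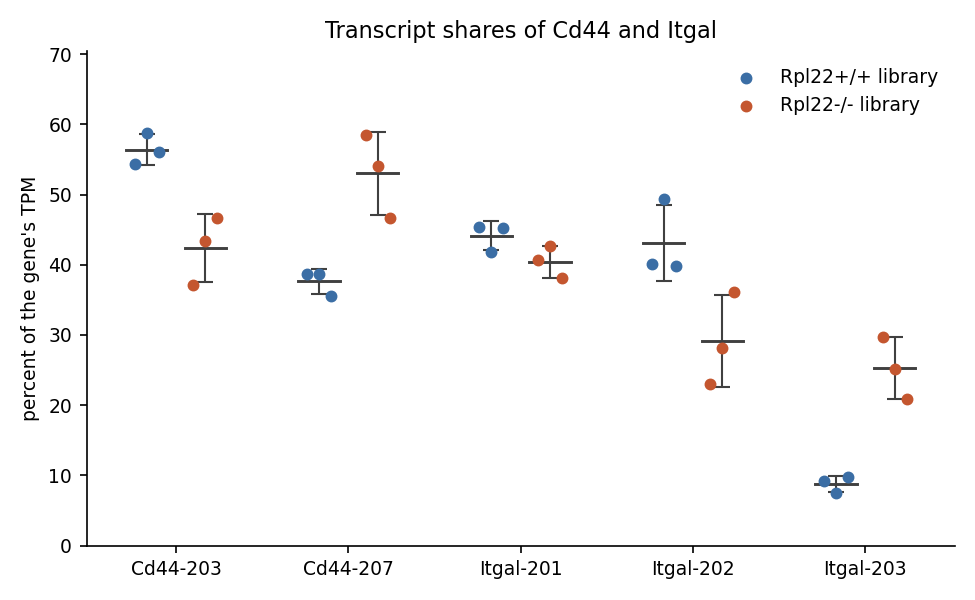
Percent of the gene's TPM held by the main transcripts of Cd44 and Itgal, points being libraries, horizontal bars group means and whiskers SD. Cd44-203 is lower and Cd44-207 higher in all Rpl22-/- libraries, and Itgal-203 goes from 8.81% to 25.3% on average.

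The genes around the integrin alpha cluster were examined next. Of 44 other genes tested between or within 100 kb of Itgal, Itgam and Itgax, 3 were called higher and 1 lower (9.09%, beside 17.5% of all genes), with a median log2 fold change of 0.14. The lower gene was Tbc1d10b (-1.15). The higher genes were Itgad, Tgfb1i1 (1.48) and Ctf1, barely detected in Rpl22+/+ (mean 0.00475 CPM, against 0.576 CPM). Genes whose level across the 6 libraries was most like that of Itgam were Dhrs7, Ypel3 and Ripor2, each at a root mean square distance of 0.06 in centred log2 CPM. Dhrs7, a short-chain dehydrogenase, stood at 150, 160 and 143 CPM in Rpl22+/+ and at 75.0, 74.6 and 59.5 CPM in Rpl22-/-.

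Further adhesion genes were read from 6 lists written by function (159 genes listed, 124 tested). The lists were written with earlier results of these data known, so the shares called are given as a description. In Rpl22-/-, 19 of them rose and 21 fell, 32.3% of those tested beside the 17.5% of all genes, with a median log2 fold change of -0.38. Without Rpl22+/+ replicate 3, 12 rose and 17 fell. The balance of directions turned with the scaling: with no composition factor 20 rose and 15 fell, and of all genes 1792 rose and 1210 fell, beside 1488 and 1423. The share called was 14.3% for the selectin genes and 18.9% for the integrin activators, near that of all genes, and 30.8% to 47.6% in the other 4 lists.

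**Figure D5:**
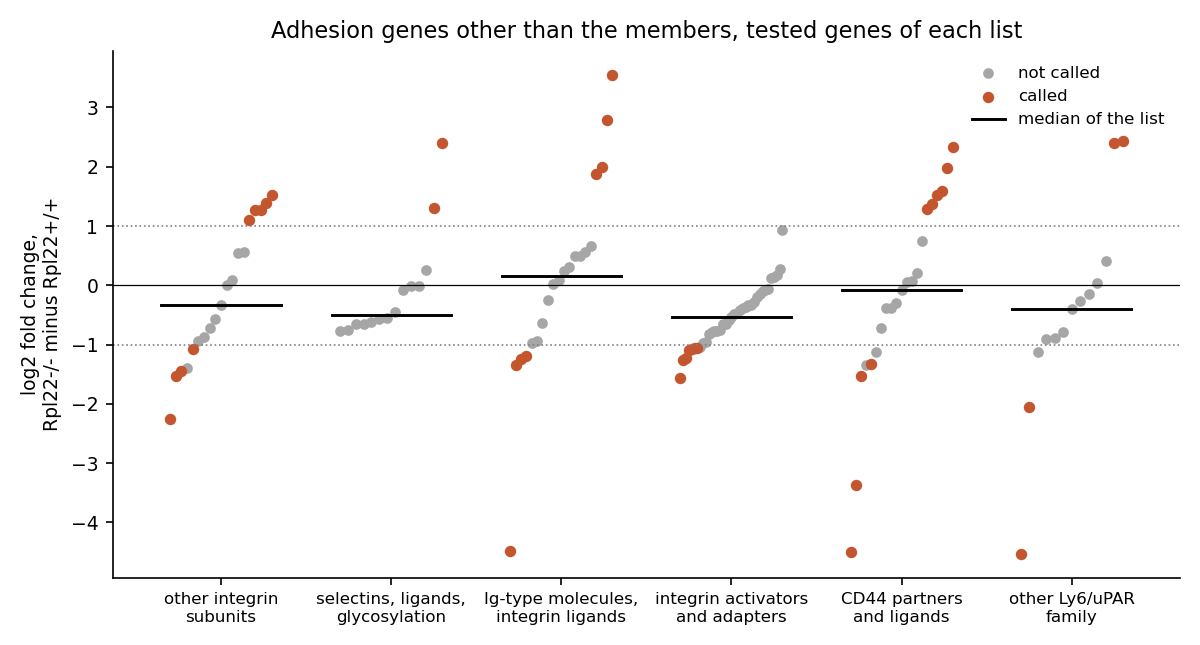
Log2 fold change (Rpl22-/- minus Rpl22+/+) of the 124 tested genes of 6 adhesion lists, with called genes in orange, other genes in grey, and a black line for the median of each list. Integrin activators and adapters hold 7 called genes, all lower, while the immunoglobulin-type molecules hold 4 higher and 4 lower.

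Among other integrin subunits, 5 of 19 rose and 4 fell. Itga6, the laminin receptor chain carried by progenitor cells and platelets, rose from 24.8, 28.6 and 26.2 CPM to 73.3, 74.5 and 60.2 CPM (log2 fold change 1.38; edgeR adjusted p = 0.0009). Itga10, a collagen receptor chain, rose at a low level (log2 fold change 1.09), but was not called without Rpl22+/+ replicate 2 (0.98), Rpl22+/+ replicate 3 (edgeR adjusted p = 0.0565) or Rpl22-/- replicate 1 (0.96), nor on log2(TPM + 1) (0.65). Itgb3, the beta chain of the vitronectin receptor, fell from 47.1, 60.2 and 47.2 CPM to 10.3, 11.2 and 10.6 CPM (log2 fold change -2.26; edgeR adjusted p = 0.00019). Itga7 and Itgae, both under 2.5 CPM in every library, fell by 1.54 and 1.07 on the log2 scale, and each was called in 9 alternatives only, of 17 and 18.

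Among selectins, their ligands and the enzymes that build them, 2 of 14 rose and 0 fell. Selp, P-selectin, rose from 3.25, 3.80 and 3.06 CPM to 14.4, 20.2 and 18.6 CPM (log2 fold change 2.40; edgeR adjusted p = 0.00038). Cd34, a sialomucin of progenitor cells, rose from 26.0, 37.8 and 23.6 CPM to 58.5, 90.4 and 68.1 CPM (log2 fold change 1.31; edgeR adjusted p = 0.0090).

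Of 20 immunoglobulin-type adhesion molecules and integrin ligands, 4 rose and 4 fell. Those that rose include Mcam (log2 fold change 2.80), Cxadr (3.55) and F11r (2.00), all adhesion proteins of cell contacts that were under 10 CPM in Rpl22+/+. Icam1, the ligand of the Itgal and Itgam heterodimers, fell from 48.9, 80.5 and 54.0 CPM to 20.1, 28.0 and 29.3 CPM (log2 fold change -1.24; edgeR adjusted p = 0.0110). Nectin2 fell from 8.52, 13.9 and 10.1 CPM to 0.294, 0.529 and 0.585 CPM (log2 fold change -4.49). Sirpa, the myeloid receptor for CD47, fell by 1.35 on the log2 scale, from 417, 643 and 475 CPM to 201, 212 and 190 CPM. Cd47 itself, the most abundant of this list, passed the adjusted p-value with a small fold in the other direction (log2 fold change 0.49; edgeR adjusted p = 0.0452), in 10 of 18 alternatives.

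Of 37 integrin activators and adapters, the proteins that tie integrin tails to actin and switch them on, 0 rose and 7 fell. Vcl (vinculin) fell from 413, 442 and 419 CPM to 221, 191 and 186 CPM (log2 fold change -1.09; edgeR adjusted p = 0.0019). Rassf5, the Rap1 effector that binds LFA-1, fell from 212, 294 and 224 CPM to 111, 120 and 115 CPM (log2 fold change -1.08; edgeR adjusted p = 0.0042). Actn1 (alpha-actinin) and Flna (filamin A) fell by 1.06 and 1.05 on the log2 scale. These folds lie close to the threshold. With no composition factor Vcl (-0.96), Rassf5 (-0.94), Actn1 (-0.92) and Flna (-0.91) were not called. On log2(TPM + 1) all of them fell short as well, at -0.89 for Vcl, -0.95 for Rassf5, -0.90 for Actn1 and -0.60 for Flna, and so they did on log2(TPM + 0.1) and against a minimum fold of 2. Without Rpl22+/+ replicate 2, Rassf5 (-0.96), Flna (-0.92) and Actn1 were not called, nor were Actn1 (-0.98) and Flna without Rpl22-/- replicate 3. Talin-1 (Tln1) and kindlin-3 (Fermt3), which bind the beta chain directly, had log2 fold changes of -0.29 and -0.09 (edgeR adjusted p = 0.387 and 0.774) and were picked for mention after their values were seen.

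Of 21 partners, ligands and processing enzymes of CD44, 6 rose and 4 fell. Srgn, serglycin, a granule proteoglycan that can bind CD44, rose from 312, 334 and 314 CPM to 1545, 1763 and 1504 CPM (log2 fold change 2.33; edgeR adjusted p = 0.00015). Hyal1, a hyaluronidase, and Stab2, a hyaluronan receptor, rose at levels under 2.1 CPM (log2 fold changes 1.29 and 1.52). Hyal1 was not called without Rpl22+/+ replicate 3 (edgeR adjusted p = 0.0502), nor Stab2 without Rpl22-/- replicate 2 (edgeR adjusted p = 0.0549), nor either of them on log2(TPM + 1) (0.58 and 0.49). Mmp9, which binds CD44 at the cell surface, fell from 2439, 3409 and 2550 CPM to 318, 299 and 200 CPM (log2 fold change -3.36). Msn, moesin, which links CD44 to actin, fell from 1026, 1440 and 1091 CPM to 454, 518 and 450 CPM (log2 fold change -1.32; edgeR adjusted p = 0.0027). Lyve1, a hyaluronan receptor related to CD44, fell from 2.31, 2.39 and 2.73 CPM to 0.187, 0.0399 and 0.123 CPM (log2 fold change -4.50, and -0.98 on log2(TPM + 1), where it was not called).

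Of 13 further genes of the Ly6/uPAR family tested, 2 rose and 2 fell. Plaur, the urokinase receptor and a lateral partner of CD11b, fell from 225, 327 and 267 CPM to 57.5, 68.7 and 70.0 CPM (log2 fold change -2.06; edgeR adjusted p = 0.00055). Ly6g5b fell by 4.53 on the log2 scale, from 43.7, 54.3 and 40.3 CPM to 2.65, 1.72 and 1.68 CPM. Despite its name it lies outside the cluster of Ly6g. Ly6k, which lies on chromosome 15 outside the 100 kb around Ly6c1, Ly6c2 and Ly6g, rose from 7.33, 12.5 and 7.95 CPM to 40.7, 61.0 and 45.4 CPM (log2 fold change 2.41), and Cd59b, an inhibitor of complement, rose at levels up to 1.07 CPM (log2 fold change 2.44).

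Markers of cell types were set beside the 17.5% of all genes that were called. Of 13 neutrophil lineage markers, 2 were higher (Elane and Mpo, proteins of early granules) and 7 lower (69.2% called), with a summed level of 167815 to 174937 TPM in Rpl22+/+ and 118374 to 142149 TPM in Rpl22-/-. Retnlg and Mmp8, genes of late neutrophils, were the largest falls of this list (log2 fold changes -4.09 and -3.79). They were named after their values were seen. The 4 markers not called were S100a9 (-0.45), S100a8 (-0.18), Cebpe (-0.02) and Csf3r (0.47). Of 11 monocyte and macrophage markers 0 were higher and 4 lower (36.4%), with sums of 1385 to 1639 against 799 to 1139 TPM. Of 11 dendritic cell markers 0 were higher and 2 lower (2499 to 3146 against 1338 to 2122 TPM), a share of 18.2%, near that of all genes; these values go beside those of Itgax. Their part in the differences of the 9 genes was not tested.

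Markers of other blood cells, some of which can carry CD11b themselves, and of stroma were detected as well. Of 9 erythroid markers 8 were higher and 0 lower (88.9% called; 249 to 288 against 1686 to 3069 TPM). Of 8 NK cell markers 4 were higher and 0 lower (43.4 to 55.1 against 276 to 353 TPM, most of it Nkg7). Of 10 T cell markers 0 were higher and 7 lower (57.9 to 71.4 against 25.2 to 29.3 TPM), and of 10 B cell markers 1 was higher and 0 lower (430 to 545 against 307 to 416 TPM), a share of 10%, under that of all genes. Of 9 eosinophil, basophil and mast cell markers 0 were higher and 4 lower (31.8 to 48.5 against 19.4 to 23.4 TPM). For platelets 0 of 3 tested markers were called in either direction (3.69 to 5.05 against 5.33 to 5.50 TPM), and for stroma and endothelium 1 of 5 was higher and 1 lower (1.34 to 1.84 against 0.845 to 1.84 TPM). No marker was at 0 in all libraries. Itgal and Itga4 are also expressed by lymphocytes, most of which a CD11b+Gr1+ gate would remove, and the part of such cells in their values was not tested.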

How the data were processed

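RNA-seq was performed on 6 libraries of sorted CD11b+Gr1+ splenocytes, grouped by their titles. Per the submitters' processing notes, reads were trimmed with Trimmomatic and quantified with Salmon, with GRCm39 as the build; versions and the transcript set are not given in the sources used here. The authors deposited estimated counts per transcript, which need not be whole, and TPM, which keep no depth. The authors deposited in addition the table of their own comparison (base mean signal, log2 fold change, score, p-values, −log10 adjusted p-values); only its gene names and positions were used.

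Counts were summed to genes with GENCODE vM21 transcript-to-gene pairs (49.2% of 276623 listed transcripts, holding 98.0% to 98.1% of reads) and rounded. Transcript structures and coding sequences are from that annotation. Genotypes were compared on the whole table with edgeR 4.0.16 (quasi-likelihood F test, TMM, filterByExpr; R 4.3.3), with Benjamini-Hochberg adjustment. The SE is that implied by the F statistic. CPM use TMM-scaled totals. Shares and ratios were compared by exact permutation tests. Scripts were tested on simulated data. Figures used matplotlib 3.10.9.

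The 9 genes, the gene lists and the tests were chosen with earlier results of these data known. Beyond the 9 genes, genes named are, per adhesion list, the 3 called genes of lowest p-value that rose, the 3 that fell and the gene with the highest TPM, plus neighbours and the 3 genes most like Itgam and Ly6g; exceptions are marked, and a gene that this rule names is not reported here. Over 13199 genes, deviations from the genotype means correlated between libraries with the same number at r = 0.570, 0.715 and 0.129. All were over 0.1, and the numbers were taken to pair the libraries. The labels state no pairing, and Rpl22+/+ replicate 3 correlated more closely with Rpl22-/- replicate 1 (0.431), so the block is an assumption. Alternatives (18 in all) included the fit with the number as a block, DESeq2 1.42.0 and limma 3.58.1. Among them too were other scalings and filters, a GC correction and each library left out in turn. All pairs of libraries within a genotype differed by more than sampling noise.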

Additional observations from a re-analysis of the deposited data

How the results depend on the processing

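Over 18 alternatives Ly6g kept its call in 18, Itgb2 and Itgal in 17 and Itgam in 13. Itgam fell short of the fold with no composition factor (-0.89, a scaling that moved the median of all genes from 0.07 to 0.19), on log2(TPM + 1) and log2(TPM + 0.1) (-0.94 each) and without Rpl22-/- replicate 3 (-0.92). The test against a minimum fold of 2 left 1 of the 9 genes called (Ly6g) and 1305 of all genes, beside 2911; log2(TPM + 1) left 1605 of all genes. Adhesion genes called higher, 19, were 12 on log2(TPM + 1), 10 against a minimum fold of 2, and 12 to 17 with a library left out, the fewest without Rpl22+/+ replicate 3; those called lower, 21, were 9 on log2(TPM + 1), 12 on log2(TPM + 0.1), 6 against a minimum fold of 2 and 16 to 23 with a library left out. The Itgam share of alpha chains differed by -0.631 to 1.44 percentage points with a library left out and by 2.30 points in CPM (exact permutation p = 0.3), beside 0.345. The alpha to beta ratio differed by 0.541 in CPM, beside 0.386 in TPM. Transcripts with non-overlapping shares, 6, were 6 to 11 with a library left out, 11 of them without Rpl22+/+ replicate 2. With fewer libraries groups overlap less easily, and no share over all transcripts was computed for these sets. Itga4 turned to 0.065 with no composition factor, 0.16 by limma-voom, 0.20 and 0.22 on log2(TPM + 1) and log2(TPM + 0.1), 0.15 with the replicate block, and lay between -0.44 and 0.24 with a library left out (0.18 without Rpl22+/+ replicate 1, 0.24 without replicate 3 and 0.04 without Rpl22-/- replicate 2). Ly6e lay between -0.14 and 0.33 with a library left out, turning to -0.14, -0.09 and -0.07 without Rpl22+/+ replicate 1, Rpl22+/+ replicate 3 and Rpl22-/- replicate 2. The causes were not tested. With the replicate number as a block the 4 calls among the 9 genes were kept, and the adjusted p of Ly6c2 crossed 0.05 (0.0347), as did that of its sum with Ly6c1; with a GC correction added, that of Ly6c1 did too (0.0328). Depth limits the genes near 1 CPM, such as Hyal1, Stab2, Cd59b and Itga7.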
